A study of Mus musculus with 4 samples.

Results

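Interferon-stimulated neutrophils are neutrophils that carry transcripts of genes switched on by interferon. They were described here in mouse prostate tumours whose cells were sequenced one by one after capture in droplets. Their members were chosen by measured values. A kept cell was a neutrophil when at least 1% of its unique molecular identifiers (UMIs, counted transcripts) came from S100a8, S100a9, Csf3r, Il1r2, G0s2 and Clec4d together, with at most 1 UMI of Cd3d, Cd3e and Cd3g and fewer than 3 of Siglecf, Ltc4s and Gpc3. It was a member when Rsad2, Ifit1, Ifit2 and Ifit3 summed to 10 or more UMIs. The rule found 208 members among 776 neutrophils and 3381 kept cells, of 3508 cell barcodes in all. The other 568 neutrophils served as the comparison.

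The study compared tumours of 2 genotypes with 2 libraries each. DKO tumours (nDKOLuc) carried Nkx3.1CreERT2 and floxed alleles that include Smad4. TKO tumours (nTKOLuc) carried the same alleles plus floxed Pygo2. Both genotypes therefore share the Cre driver, the Smad4 allele and tamoxifen induction. Tumours were taken 10 or 17 weeks after tamoxifen, and the labels tie neither time to a library. Nkx3.1 drives Cre in prostate epithelium, so the neutrophils were not the intended target of the deletions. Pygo2 had 1, 0, 3 and 1 UMIs in members, and 5.91, 10.1, 16.7 and 5.35 CPM (UMIs per 1000000 UMIs of the summed population) in epithelial cells of DKO replicate 1, DKO replicate 2, TKO replicate 1 and TKO replicate 2, where the genotypes overlapped. A 3′ tag can lie outside a deleted stretch, so these values do not check the labels. This order of libraries is kept throughout. Cells of the 4 libraries were marked with hashtag antibodies and loaded together. The labels do not say that replicates came from separate animals, so every p-value below rests on how much these 4 libraries vary, and that variation could be technical alone.

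Type I interferons bind the receptor IFNAR1/IFNAR2 and activate receptor-bound kinases, which phosphorylate transcription factors of the STAT family. With IRF9 these form a complex that binds interferon-stimulated response elements and switches on antiviral genes, among them the Ifit, Oas, Schlafen and guanylate-binding families. Neutrophils respond to interferon in blood, infection and tumours, and a subset with this signature recurs in single-cell surveys of tumour neutrophils.

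Library totals over kept cells ranged from 9167770 to 18360201 UMIs. The members' median depth per library was 6183.5 to 7522.5 UMIs, against 5830 to 6881 UMIs in the other neutrophils. No barcode was shared by any of the 6 pairs of libraries, and the library's own hashtag was the highest in every member. Doublets were not called beyond this hashtag check, so doublets within a library were kept. The gate genes, which chose the neutrophils, took a median of 2.56%, 4.85%, 3.55% and 3.10% of a member's UMIs and 4.66%, 4.90%, 3% and 3.75% of another neutrophil's, against at most 0.0179% in T cells of any library. T cells were chosen with under 1% of UMIs in these genes, so a gap was set in advance. S100a8, a calcium-binding protein that neutrophils hold in bulk, had 11611, 18883, 13018 and 15869 CPM in members and 20474, 19692, 14485 and 15641 CPM in the others. The populations overlapped, and members of DKO replicate 1 were lowest. Mononuclear phagocyte UMIs (Csf1r, Ms4a6c, C1qa, C1qb, C1qc and Ccr2) reached 3 or more in 9 members (4.33%) and in 28 other neutrophils (4.93%). Among markers of other cells, Cd79a, Cd79b, Ms4a1 and Cd4 were at 0 in members, but not the immunoglobulin genes Ighm, Igkc and Jchain. The B and plasma cell list summed to 337 to 428 CPM in members and 356 to 422 CPM in the other neutrophils, the epithelial list to 61.7 to 139 CPM and 151 to 190 CPM, and the fibroblast list to 688 to 802 CPM and 746 to 980 CPM. None of the 3, 5 and 6 tested genes of these lists passed the test described below.

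The 4 selecting genes split the neutrophils unevenly. Of the 776 neutrophils, 419 (54.0%) held no UMI of the 4 genes, 119 held 1 to 4, 30 held 5 to 9, 25 held 10 to 14, 82 held 15 to 49 and 101 held 50 or more. The ranges differ in width and the last is open, so these counts cannot show a gap at the threshold. The 30 cells just outside it (5 to 9 UMIs) had a pooled Isg15 level of 2054 CPM and the 25 just inside (10 to 14 UMIs) had 2915 CPM. Slfn4 stood at 1498 and 2372 CPM in the same cells. Cells with 0 to 4 UMIs had a pooled Isg15 level of 548 CPM.

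**Figure D1:**
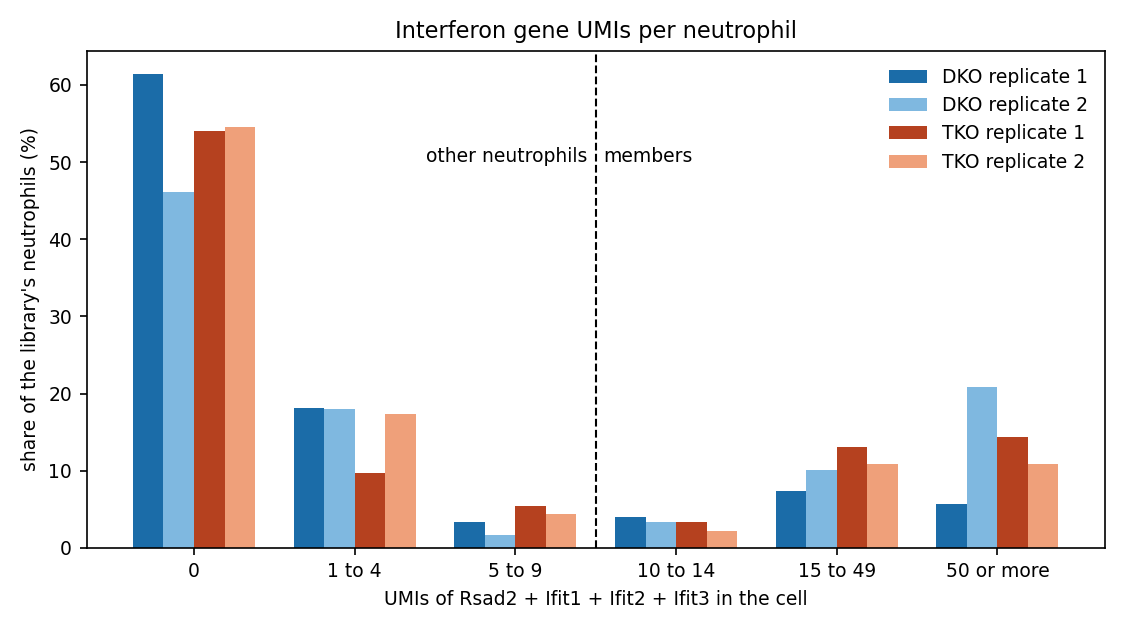
Share of each library's neutrophils (vertical axis, percent) by the summed UMIs of Rsad2, Ifit1, Ifit2 and Ifit3 in the cell (horizontal axis), with 1 bar per library and the dashed line at the threshold of 10 UMIs. In each library the bar at 0 UMIs is the tallest, and the bars from 5 to 14 UMIs are lower than those at 15 UMIs and above. The ranges at 15 UMIs and above are wider, so the bar heights do not show a gap.

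The values that chose the members are given as a description, with no test. Rsad2, the antiviral enzyme viperin, had 4081, 8925, 6243 and 7184 CPM in members and 48.1, 81.2, 80.6 and 105 CPM in the other neutrophils. Ifit1, which binds foreign RNA caps, had 1641, 1710, 1915 and 1404 CPM against 23.5, 12.4, 19.2 and 16.9 CPM. Rsad2 supplied most of the sum in a typical member, with medians of 23, 51, 27 and 37 UMIs per member against 6, 6, 8 and 4.5 UMIs of Ifit1. Ifit2 medians were 0.5, 0, 0 and 0 UMIs and Ifit3 medians 1, 1, 3 and 1 UMIs. DKO replicate 2 had the highest Rsad2 level and DKO replicate 1 the lowest.

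Members made up 17.0% (30 of 176), 34.3% (61 of 178), 30.8% (73 of 237) and 23.8% (44 of 185) of the neutrophils. The exact 95% binomial intervals ran from 11.8% to 23.4%, 27.3% to 41.7%, 25.0% to 37.1% and 17.8% to 30.6%, and cover counting error only. DKO libraries held both the lowest and the highest share, so the genotypes overlapped. Means were 25.7% ± 12.2 (SD, n = 2) in DKO and 27.3% ± 4.96 (SD, n = 2) in TKO. The difference of 1.64 percentage points had an exact two-sided permutation p of 1, where 2 against 2 libraries allow no p below 0.333. It became -6.98 without DKO replicate 1, 10.2 without DKO replicate 2 and -1.87 without TKO replicate 1. Thinning each cell to 3000 UMIs and asking for 3 interferon gene UMIs gave shares of 19.8%, 36.9%, 34.5% and 27.4%, after leaving out 9, 10, 14 and 10 shallower neutrophils.

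Gene by gene, the members differed from the other neutrophils mainly upwards. UMI counts were summed per library and population and compared with edgeR's quasi-likelihood test, with the library as a block and the 16 genes of the rule set aside. Of 5608 genes tested, 491 (8.76%) were higher in members and 66 (1.18%) lower at an adjusted p under 0.05, and 185 of the higher ones had a log2 fold change over 2. The shares of 8.76% and 1.18% are the background for the counts of each list below. With 1 library left out the calls numbered 362 to 505, the fewest without DKO replicate 2. Since the cells were sorted by 4 interferon genes, genes that go with these 4 from cell to cell were bound to differ: the calls say which genes those are and not that an independent contrast was found. The split depended on scaling. With the TMM factors used here the median log2 fold change of all genes was -0.05. Scaled by total UMIs alone, the median moved to -0.36 and the calls became 325 higher and 479 lower. In CPM, without TMM factors, all 4 member values lay above all 4 others in 316 of the 5608 genes and below in 724.

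Sensors of foreign nucleic acid were the first list compared. The cells were sorted by interferon genes, and whether the sensors rose before or after interferon acted was not tested. Of 18 listed sensors and adaptors, 11 were tested, 8 were higher in members and 0 lower, with a median log2 fold change of 2.62 against -0.05 for all genes. Scaled by total UMIs, 7 were higher and 1 lower. Ifih1, the RNA sensor MDA5, had 410, 781, 521 and 689 CPM in members and 41.9, 84.0, 49.9 and 57.9 CPM in the other neutrophils. All 4 member values lay above all 4 others, and the log2 fold change was 3.67 ± 0.18 (SE; edgeR adjusted p = 4.44e-09). Ddx58 (RIG-I) followed with 3.28 ± 0.18, and Zbp1, a sensor of Z-form nucleic acid, with 3.91 ± 0.21. Cgas, the cytosolic DNA sensor, had 57.4, 95.7, 67.5 and 102 CPM against 11.3, 15.1, 13.4 and 25.3 CPM, again without overlap (log2 2.62 ± 0.29, edgeR adjusted p = 1.79e-05). Tlr7, the endosomal RNA receptor, was near its counting limit at 39.7, 22.7, 7.71 and 18.1 CPM against 5.11, 4.13, 0.960 and 1.21 CPM (3.15 ± 0.64).

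The signalling arm split between its transcription factors and its receptors. Of 16 tested receptor and JAK-STAT genes 8 were higher and 0 lower, with a median of 0.66. Stat2, a subunit of the complex that binds the response element, had 340, 257, 324 and 359 CPM in members and 31.7, 24.8, 34.6 and 37.4 CPM in the others (log2 3.61 ± 0.20, edgeR adjusted p = 1.27e-08). Irf7, the factor that amplifies interferon production, rose by 3.60 ± 0.21. Irf9 and Irf1 rose less, by 2.09 ± 0.23 and 2.17 ± 0.23. None of these 4 genes overlapped between the populations. The receptor chains did not pass: Ifnar1 had 110, 95.7, 98.3 and 98.0 CPM in members against 179, 132, 168 and 150 CPM (-0.33 ± 0.20, edgeR adjusted p = 0.374), and Ifngr1 had -0.31 ± 0.21. Neither receptor chain overlapped between the populations, but 724 of the 5608 tested genes lay wholly lower in members in CPM. Under total UMI scaling Ifnar1 was called lower at -0.64.

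Feedback inhibitors were called in part. Of 8 tested, 3 were higher and 0 lower, with a median of 0.24 that became -0.07 when scaled by total UMIs. Usp18, which removes ISG15 and shuts the receptor, had 454, 471, 478 and 512 CPM in members against 18.4, 26.2, 20.2 and 35.0 CPM (log2 4.59 ± 0.22, edgeR adjusted p = 3.69e-09). The annotated antisense-strand gene Gm44148 overlaps Usp18, and the counting by strand is not given in the sources used here. Socs1, the inhibitor of JAK kinases, had 97.1, 108, 94.5 and 105 CPM against 19.4, 34.4, 26.9 and 28.9 CPM (2.20 ± 0.25). Trim30a rose by 2.86 ± 0.17.

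Antiviral effectors formed the longest list. Of 39 tested, 37 were higher in members and 0 lower, with a median of 3.12. Herc6, the mouse ligase for ISG15, had 878, 1484, 1244 and 1259 CPM against 40.9, 48.2, 38.4 and 41.0 CPM and the smallest p of all genes (log2 5.13 ± 0.20, edgeR adjusted p = 1.89e-09). Isg15 itself had 4425, 3726, 4411 and 4709 CPM against 713, 501, 705 and 591 CPM (3.09 ± 0.15), so the other neutrophils were not empty of it. Cmpk2, a nucleotide kinase next to Rsad2 on chromosome 12, had 137, 451, 528 and 377 CPM against 6.14, 6.88, 6.72 and 10.9 CPM (5.84 ± 0.30). Its lowest value lay in DKO replicate 1, which also had the lowest Rsad2. Ifit3b had the largest log2 fold change of the 12 genes named by size, 6.25 ± 0.28, but is a near copy of Ifit3, a gene of the rule, and reads may be shared between them.

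The pair of antiviral genes that did not pass, Ifitm1 and Ifitm2, belong to a family of membrane proteins that block virus entry. Ifitm3 was higher at 2806, 1947, 3440 and 2663 CPM against 491, 498, 559 and 519 CPM (2.67 ± 0.16). Ifitm1 did not pass, with 476, 773, 1151 and 457 CPM in members and 1595, 1048, 1219 and 1148 CPM in the others (-0.56 ± 0.27, edgeR adjusted p = 0.25). Ifitm1 was called lower under total UMI scaling, at -0.87, with no filter on low counts, at -0.74, and without TKO replicate 1, at -0.88.

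**Figure D2:**
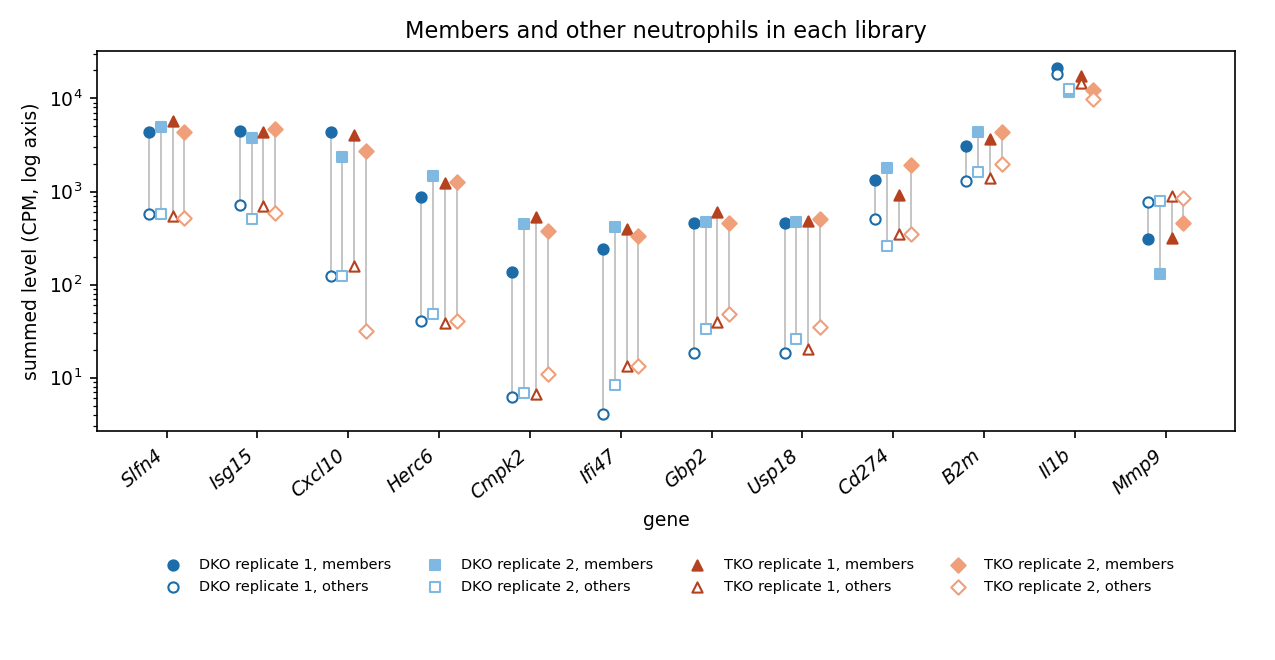
Summed level in CPM (log axis) of 12 genes in members (filled) and other neutrophils (open) of each of the 4 libraries, with a grey line joining the values of a library. Members lie above the others for the interferon-stimulated genes from Slfn4 to B2m in each library, Il1b overlaps, and Mmp9 lies lower in members of all 4 libraries.

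Schlafen genes, a family of growth regulators induced by interferon in myeloid cells, were higher in all 7 tested members of the family (median 4.04). Slfn4, named as a marker of these cells, had 4403, 4905, 5753 and 4368 CPM against 571, 577, 544 and 526 CPM. The populations did not overlap and the libraries were close within each (3.43 ± 0.16, edgeR adjusted p = 3.6e-09). Slfn5 rose by 4.04 ± 0.18 and Slfn8 by 4.09 ± 0.21, while Slfn1 and Slfn2, whose levels in the other neutrophils were 185 to 228 CPM and 396 to 790 CPM, rose by 2.03 ± 0.16 and 1.71 ± 0.17.

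Interferon-inducible GTPases, which attack the vacuoles of intracellular pathogens, were higher in all 10 tested genes (median 3.93). They were listed as interferon gamma GTPases, and which kind of interferon had acted on the members was not tested. Gbp2 had 463, 469, 603 and 457 CPM against 18.4, 33.0, 39.4 and 48.2 CPM (4.18 ± 0.23, edgeR adjusted p = 1.09e-08). Irgm1 had 207, 353, 305 and 450 CPM against 10.2, 28.9, 14.4 and 33.8 CPM (4.28 ± 0.23). Gbp3 and Gbp5 rose by 5.11 ± 0.37 and 4.80 ± 0.37. Ifi47 had 243, 413, 391 and 330 CPM against 4.09, 8.26, 13.4 and 13.3 CPM (5.44 ± 0.26), but its annotation overlaps Olfr56, whose fold change was 5.32, and reads of the pair cannot be told apart.

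**Figure D3:**
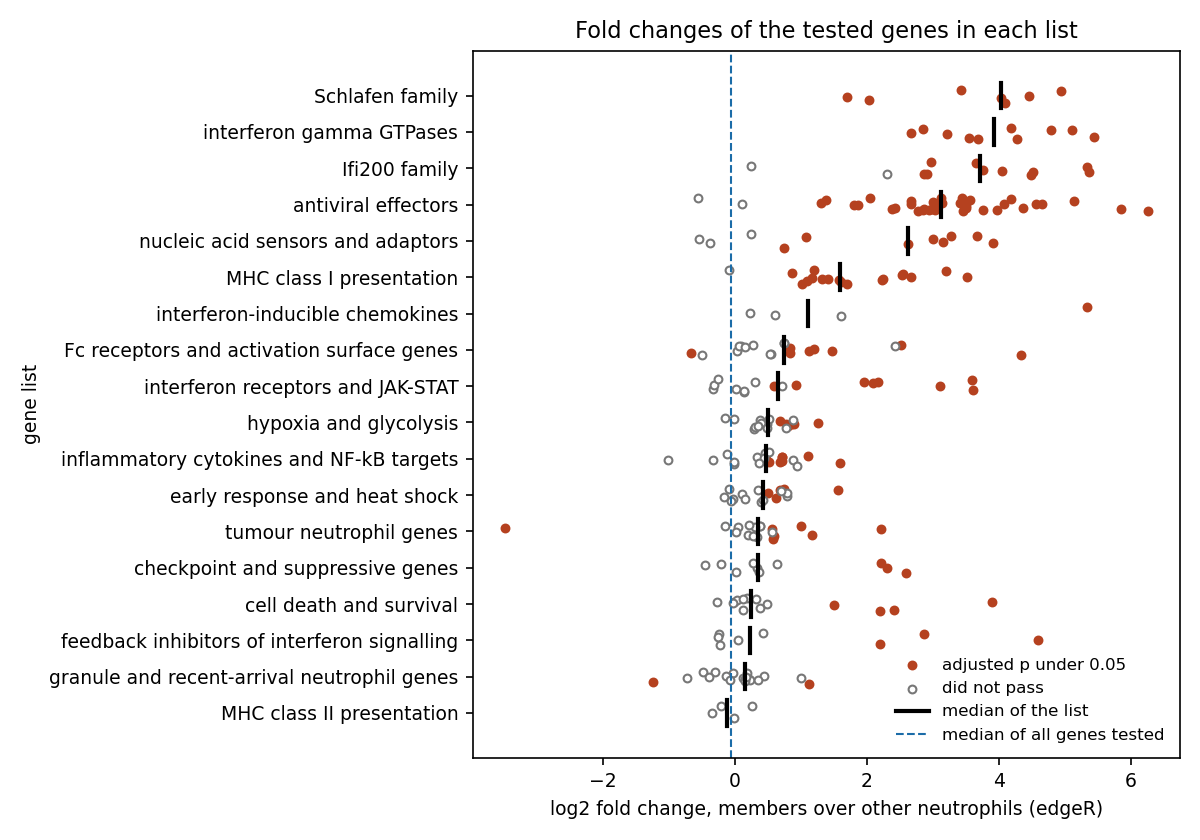
Log2 fold change of members over other neutrophils (horizontal axis) for each tested gene of 18 gene lists (vertical axis), filled where the edgeR adjusted p was under 0.05, with the list's median as a black bar and the median of all 5608 genes as a dashed line. Schlafen genes, GTPases, Ifi200 genes and antiviral effectors lie to the right, while granule genes and MHC class II genes sit around the dashed line.

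The start sites of these genes were searched for the letters of the interferon-stimulated response element, because the members' genes moved together. The 250 bases before each RefSeq gene start (GRCm38.p6) were scanned on both strands for GAAANNGAAA. Matches may overlap each other. By symbol, 4473 of the 5608 tested genes had a window. Counted by window, 2.98% of the 32851 windows in the whole table held a match. Counted by gene, as below, a match was held by 4.31% (193 of 4473) of the tested genes with a window. The share was 3.46% of all genes with a window. Among genes higher in members with a log2 fold change over 2, 47 of 151 with a window (31.1%) held one. The share was 5.12% (13 of 254) among those higher by less, 4.08% (2 of 49) among genes lower in members and 3.26% (131 of 4019) among genes not called. The cells were sorted by interferon genes, so the higher share among the called genes is no independent support for the rule. Below are 5 windows that show where the letters lie, in capitals, read 5′ to 3′ on the gene's strand with the gene start just after the last base. They are Isg15 (chr4:156200819-156201068, minus strand, 3 overlapping matches), Ifit1 (chr19:34640639-34640888, plus strand, 2 matches), Rsad2 (chr12:26456453-26456702, minus strand), Gbp2 (chr3:142620413-142620662, plus strand) and Cxcl10 (chr5:92348890-92349139, minus strand).
Isg15: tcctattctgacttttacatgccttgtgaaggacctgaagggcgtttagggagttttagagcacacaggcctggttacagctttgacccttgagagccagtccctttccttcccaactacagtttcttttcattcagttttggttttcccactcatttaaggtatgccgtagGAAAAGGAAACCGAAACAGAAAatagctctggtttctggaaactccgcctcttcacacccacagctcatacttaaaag
Ifit1: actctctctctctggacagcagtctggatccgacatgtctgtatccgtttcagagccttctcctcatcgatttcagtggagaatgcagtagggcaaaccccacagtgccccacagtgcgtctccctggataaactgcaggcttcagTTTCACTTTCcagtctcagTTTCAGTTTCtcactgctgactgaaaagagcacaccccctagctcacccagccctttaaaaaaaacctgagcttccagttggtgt
Rsad2: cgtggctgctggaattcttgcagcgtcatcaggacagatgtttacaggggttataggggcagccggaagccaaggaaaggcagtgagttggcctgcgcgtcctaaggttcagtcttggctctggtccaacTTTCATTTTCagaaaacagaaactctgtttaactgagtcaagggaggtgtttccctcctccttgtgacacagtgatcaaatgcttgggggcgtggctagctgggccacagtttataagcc
Gbp2: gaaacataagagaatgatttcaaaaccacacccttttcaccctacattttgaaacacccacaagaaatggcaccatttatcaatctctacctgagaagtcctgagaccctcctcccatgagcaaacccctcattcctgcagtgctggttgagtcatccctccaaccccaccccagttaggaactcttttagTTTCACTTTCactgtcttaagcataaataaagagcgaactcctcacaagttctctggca
Cxcl10: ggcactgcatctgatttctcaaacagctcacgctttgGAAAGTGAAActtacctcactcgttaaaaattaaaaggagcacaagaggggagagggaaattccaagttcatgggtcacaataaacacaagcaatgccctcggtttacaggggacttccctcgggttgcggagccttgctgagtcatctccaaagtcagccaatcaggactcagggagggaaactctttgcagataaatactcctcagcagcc
The nearest match began 66 bases before the start of Isg15, 85 before Ifit1, 59 before Gbp2 and 120 before Rsad2, and the match of Cxcl10 began 213 bases before. Slfn4, Cd274, Herc6, Cmpk2, Ifih1 and Irf7, all higher in members, held no match, which says only that these letters are not in their windows. Of 66 genes checked by name that had a window, 22 held a match.

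The Ifi200 family of nuclear DNA-binding proteins moved with the members but not in every library. Of 12 tested, 10 were higher and 0 lower (median 3.71). Ifi204 had 807, 10.1, 1402 and 1379 CPM in members and 57.3, 2.75, 74.9 and 50.7 CPM in the others (4.48 ± 0.26, edgeR adjusted p = 1.4e-08). DKO replicate 2 stood apart in both populations, and 57 of its 61 members held no Ifi204 UMI. Ifi207 had 291, 5.04, 380 and 337 CPM in members against 52.2, 6.88, 53.8 and 44.6 CPM, with the same library low (2.86 ± 0.30). Ifi209 had 340, 35.3, 158 and 131 CPM against 10.2, 5.51, 0.960 and 2.41 CPM (5.37 ± 0.43), and Ifi211 had 199, 27.7, 229 and 200 CPM against 19.4, 5.51, 3.84 and 6.03 CPM. Members of DKO replicate 2 were the lowest for each of these 4 genes, and the populations overlapped for Ifi204 and Ifi207 but not for Ifi209 and Ifi211. Without the library block Ifi204 and Ifi207 lost their calls, with adjusted p of 0.0685 and 0.0726, and 3 of 6 tested Ifi200 genes were called. The annotations of Ifi211 and Mndal overlap.

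The Ifi200 gene Ifi202b followed another order. It had 185 and 98.2 CPM in members of the DKO libraries and 0 and 3.63 CPM in members of the TKO libraries, where 0 and 1 UMIs were counted. The other neutrophils held 6.14, 4.13, 3.84 and 3.62 CPM. The populations overlapped, and the call of 3.65 ± 0.81 (edgeR adjusted p = 0.0119) was lost with DESeq2, which gave an adjusted p of 0.484, at an interferon threshold of 5 UMIs (0.0507) and with matched cells (0.118). In the DKO libraries the UMIs came from 8 of 30 and 11 of 61 members.

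**Figure D4:**
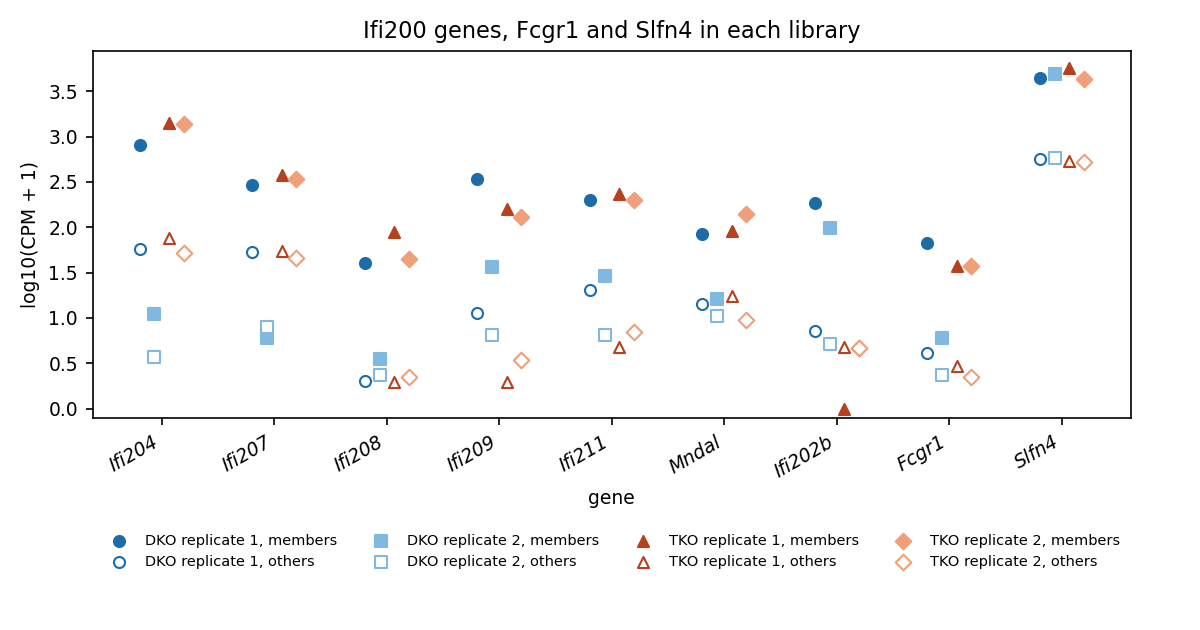
Level as log10(CPM + 1) of 7 Ifi200 genes, Fcgr1 and Slfn4 in members (filled) and other neutrophils (open) of each library. DKO replicate 2 lies below the other libraries for Ifi204, Ifi207, Ifi208, Ifi209, Ifi211 and Mndal in members, while its Slfn4 level lies among theirs.

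Of the interferon-inducible chemokines only Cxcl10, a ligand of CXCR3 that attracts T cells, passed among 4 tested (median 1.11). It had 4368, 2368, 4012 and 2699 CPM in members and 124, 124, 156 and 31.4 CPM in the others, with no overlap (5.34 ± 0.27, edgeR adjusted p = 1.27e-08). Its annotation overlaps Art3 on the opposite strand. Ccl5 did not pass (17.6, 37.8, 34.7 and 308 CPM against 34.8, 20.7, 22.1 and 30.2 CPM). In TKO replicate 2 a single member held 91.8% of the Ccl5 UMIs, and the level without that cell was 26.6 CPM. Ccl5 was called higher, at 2.17, without DKO replicate 1, where that cell remained, and at 1.43 with no filter on low counts.

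Cxcl10 was concentrated in few members, unlike Slfn4. Cxcl10 UMIs were absent from 19 of 30, 25 of 61, 36 of 73 and 23 of 44 members. The highest member of each library held 521, 106, 345 and 170 UMIs of Cxcl10. In DKO replicate 1 that cell carried 52.6% of all member UMIs of the gene, and the level fell from 4368 to 2144 CPM without it. Slfn4 by contrast was absent from 0, 2, 3 and 1 members, and its highest cell held 8.52%, 5.03%, 6.40% and 5.15% of the UMIs. The smallest number of members that together held at least 50% of the UMIs was 1, 6, 4 and 4 for Cxcl10 and 9, 17, 19 and 14 for Slfn4.

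Free RNA in droplets can add to such shares, and its amount was not measured. Cxcl10 UMIs were found in 36.7%, 59.0%, 50.7% and 47.7% of members, in 21.2%, 12.8%, 19.5% and 13.5% of the other neutrophils, and in 34.5%, 35.1%, 29.5% and 36.4% of T cells, whose median depth was 11321 to 13969 UMIs. With every cell thinned to 3000 UMIs, which left out 0, 2, 2 and 1 members, the shares were 30%, 49.2%, 36.6% and 44.2% in members. They were 14.6%, 5.50%, 11.2% and 6.82% in the other neutrophils and 15.1%, 16.0%, 10.9% and 17.4% in T cells. The share in the other neutrophils lay within the T cells' range or below it, although single other neutrophils held up to 41, 65, 106 and 4 UMIs of Cxcl10. T cells had 210, 292, 162 and 420 CPM of Cxcl10, and the source of their UMIs was not tested. Members held 44.7%, 24.8%, 42.7% and 16.5% of all Cxcl10 UMIs of kept cells, although they were 4.86%, 8.04%, 6.04% and 5.52% of those cells.

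Members with more UMIs of the selecting genes carried more Cxcl10, Gbp2 and Cd274. The limit of 50 UMIs used here was set after the values were seen, the split uses the genes of the rule, and the values are a description. Cxcl10 had 1442, 883, 87.7 and 668 CPM in the 20, 24, 39 and 24 members with 10 to 49 UMIs, and 8916, 3152, 8023 and 4909 CPM in the 10, 37, 34 and 20 members with 50 or more. Gbp2 had 181, 160, 137 and 139 CPM in the lower band and 902, 631, 1080 and 803 CPM in the upper. Slfn4 differed less between the bands, with 4219, 2837, 3906 and 3976 CPM against 4689, 5996, 7641 and 4795 CPM. In TKO replicate 1 the lower band held no more Cxcl10 (87.7 CPM) than the other neutrophils (156 CPM). Median depths were 7130, 5726.5, 6134 and 5737 UMIs in the lower band and 9311.5, 7069, 7132.5 and 6424 UMIs in the upper, and the part of depth in this order was not tested.

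**Figure D5:**
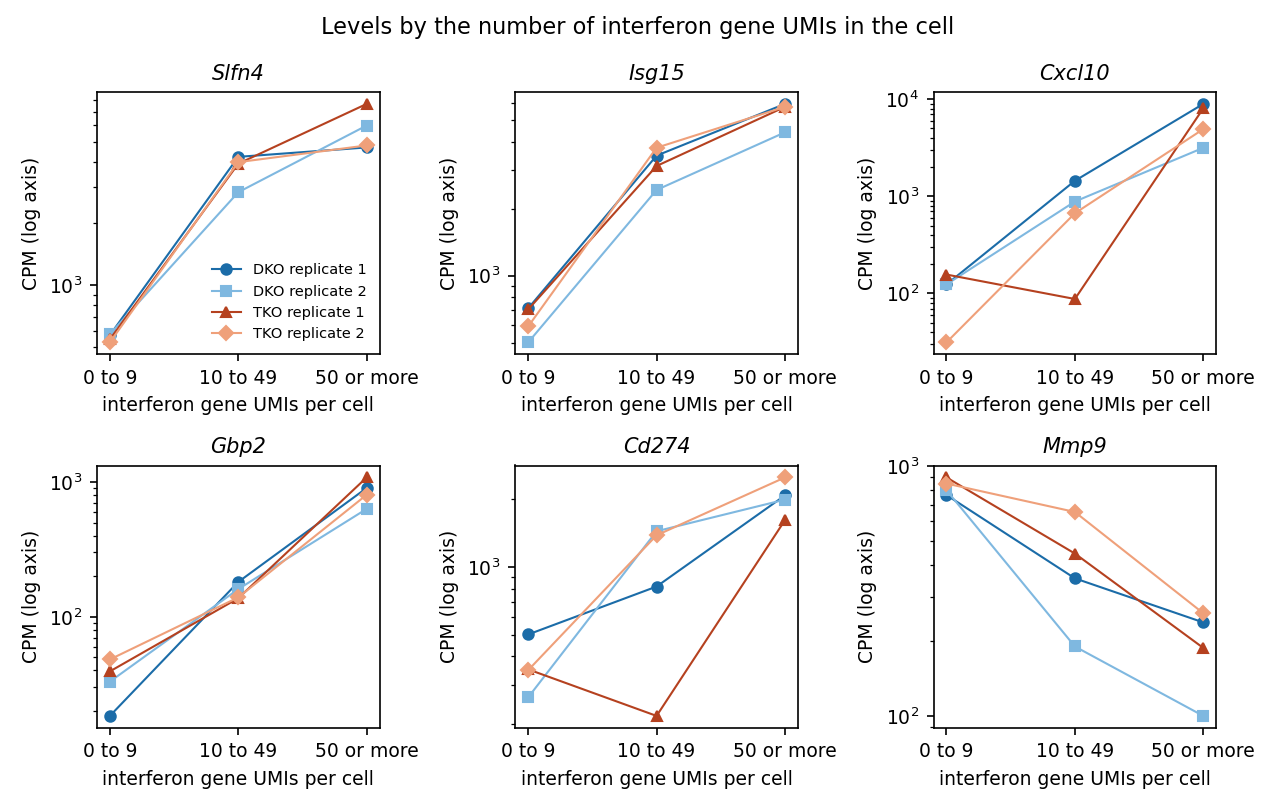
Level in CPM (log axis) of Slfn4, Isg15, Cxcl10, Gbp2, Cd274 and Mmp9 in neutrophils with 0 to 9, 10 to 49 and 50 or more UMIs of the 4 selecting genes, with 1 line per library. Slfn4 and Isg15 are already high in the middle band, Cxcl10 and Gbp2 are highest in the top band of each library, and Mmp9 is lowest there.

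Antigen presentation by MHC class I rose as a group. All 18 listed genes were tested, and 17 were higher in members and 0 lower (median 1.59). Nlrc5, the transactivator of class I genes, had 163, 378, 216 and 410 CPM against 16.4, 46.8, 19.2 and 47.0 CPM (3.52 ± 0.21, edgeR adjusted p = 2.57e-08). The peptide transporter subunit Tap1 rose by 3.20 ± 0.22, although its annotation overlaps Psmb9. The light chain B2m had 3053, 4373, 3656 and 4350 CPM against 1286, 1605, 1412 and 1962 CPM (1.61 ± 0.14), and the heavy chain H2-K1 rose by 1.32 ± 0.15. None of 4 tested MHC class II genes passed (median -0.11). Cd74, the class II invariant chain, had 61.8, 108, 133 and 131 CPM in members and 145, 173, 152 and 217 CPM in the others (-0.34 ± 0.23, edgeR adjusted p = 0.424), and was called lower at -0.66 when scaled by total UMIs.

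Among checkpoint and suppressive genes 3 of 10 tested were higher and 0 lower (median 0.35, and 0.05 when scaled by total UMIs). Cd274, which encodes the ligand PD-L1, had 1315, 1806, 910 and 1923 CPM in members and 501, 263, 350 and 347 CPM in the others. The populations did not overlap, and the log2 fold change was 2.30 ± 0.24 (edgeR adjusted p = 8.6e-06). Within members it followed the selecting genes, with 819, 1444, 217 and 1386 CPM at 10 to 49 UMIs and 2085, 1997, 1618 and 2508 CPM at 50 or more. Lgals9, the lectin galectin-9, had 238, 416, 422 and 479 CPM against 44.0, 70.2, 85.5 and 129 CPM (2.59 ± 0.19).

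Cell death genes were higher in 4 of 14 tested and lower in 0 (median 0.25, and -0.05 when scaled by total UMIs). They were Daxx, a chromatin and apoptosis regulator (3.89 ± 0.30), and the caspases Casp8 (2.41 ± 0.27), Casp1 (2.21 ± 0.35) and Casp4 (1.5 ± 0.18). With a neutrophil gate of 3% Casp1 lost its call at 1.47 (edgeR adjusted p = 0.14). Daxx had 132, 126, 100 and 109 CPM against 9.20, 8.26, 6.72 and 14.5 CPM, without overlap.

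Surface genes gave 7 higher and 1 lower of 19 tested (median 0.75). Fcgr1, the high-affinity Fc receptor CD64, had 66.2, 5.04, 36.6 and 36.3 CPM against 3.07, 1.38, 1.92 and 1.21 CPM (4.34 ± 0.60, edgeR adjusted p = 0.00014). DKO replicate 2 was again lowest, with 2 UMIs in all, and the cause was not tested. Ly6c2 had 137, 80.6, 73.3 and 76.2 CPM against 18.4, 16.5, 18.2 and 22.9 CPM (2.52 ± 0.29), and Ly6e rose by 1.48 ± 0.19. Clec4n, the pattern receptor dectin-2, was lower at 318, 159, 330 and 432 CPM against 480, 381, 905 and 612 CPM (-0.65 ± 0.18, and -0.96 when scaled by total UMIs), with overlap between the populations. The call of Clec4n was lost without DKO replicate 2 (-0.58) and without TKO replicate 1 (-0.50), with matched cells (-0.59) and with no library block (edgeR adjusted p = 0.239).

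Several of these genes also mark monocytes and macrophages. Of 8 tested markers of those cells, 4 were higher in members, namely Ctss, Ly6c2, Fcgr1 and Plac8, and 0 were lower (median 0.85). The summed level of the 16 listed markers was 867 to 1571 CPM in members and 528 to 792 CPM in the others. The other 4 tested markers did not pass. Among them Csf1r had 75.0, 63.0, 46.3 and 43.5 CPM in members against 56.3, 79.9, 90.3 and 123 CPM (-0.30 ± 0.29, edgeR adjusted p = 0.613). It was higher in members of DKO replicate 1 only. Adgre1 had -0.58 ± 0.37, and Mrc1 was at 0 in members. C1qa had 1, 1, 1 and 3 UMIs in members, C1qc had 0, 3, 5 and 0, and Ccr2 had 1, 0, 0 and 0. Without the cells that held 3 or more mononuclear phagocyte UMIs, 499 genes were higher and 69 lower. Ctss, a lysosomal protease, was found in 20 of 30, 39 of 61, 56 of 73 and 29 of 44 members. The 13 T and NK cell markers summed to 48.5 to 493 CPM in members and 55.5 to 75.7 CPM in the others. Gzmb, a granzyme of those cells, passed (3.40 ± 0.77), but 1 member of TKO replicate 1 held 96.1% of that library's 77 UMIs. The part of other cell types in these values was not tested.

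Inflammatory cytokines and NF-kB targets gave 9 higher and 0 lower of 21 tested (median 0.47). Scaled by total UMIs, 4 were higher and the median was 0.17. The counts were 5 higher and 1 lower without TKO replicate 2, 5 higher at interferon thresholds of 5 or 10 per 10000 UMIs, and 1 higher with no library block. Ccl4, a chemokine that attracts leukocytes, had 8042, 2071, 4084 and 1687 CPM against 2507, 1110, 1415 and 813 CPM (1.60 ± 0.16, edgeR adjusted p = 3.87e-06). Ccl3 had 7442, 1270, 1990 and 1887 CPM against 3011, 1042, 1441 and 832 CPM (1.11 ± 0.16). Each was higher in the members of all 4 libraries, yet the populations overlapped, and DKO replicate 1 was the highest library in each population. Il1b, the pyrogenic cytokine, had 21242, 11610, 17240 and 12285 CPM against 18439, 12491, 14758 and 9753 CPM. Its call (0.47 ± 0.13) was lost under total UMI scaling, at 0.16 with an adjusted p of 0.262, and without DKO replicate 2 (0.54), TKO replicate 1 (0.42) or TKO replicate 2 (0.42). It was lost as well with no filter on low counts (0.30), at interferon thresholds of 5, 20 and 10 per 10000 UMIs, at the 3% gate, with comparison cells matched by UMIs and with no library block, at 0.35 to 0.46 in these. Il1rn, the interleukin-1 receptor antagonist, rose by 0.71 ± 0.14, and by 0.41 under that scaling. Its call was lost without TKO replicate 2, at 0.64, and with matched cells, at 0.56. The calls of Ccl3 and Ccl4 were lost when the fit had no library block, with adjusted p of 0.276 and 0.0721.

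Of 19 tested granule and recent-arrival genes 1 was higher and 1 lower (median 0.15, and -0.16 when scaled by total UMIs). Of all genes tested 8.76% were higher and 1.18% lower, and single calls among 19 genes say little about the list. The count higher was 0 without DKO replicate 2, TKO replicate 1 or TKO replicate 2 and 3 without DKO replicate 1. The lower one was Mmp9, the gelatinase of neutrophil granules, with 309, 131, 318 and 464 CPM in members and 765, 800, 900 and 850 CPM in the others. All member values lay below all others, as in 724 of the 5608 tested genes in CPM (-1.24 ± 0.22, edgeR adjusted p = 0.00157). In the tumour neutrophil list 6 of 18 were higher and 1 lower (median 0.36), and 3 were higher without DKO replicate 2, without TKO replicate 2 or when scaled by total UMIs. Ctsb, a cysteine protease, rose by 1.01 ± 0.16 without overlap. Gpnmb, a glycoprotein of lipid-laden phagocytes, was lower, at 8.82, 2.52, 1.93 and 0 CPM against 63.4, 6.88, 94.1 and 3.62 CPM (-3.48 ± 0.64). It was lower in members of each library, but the populations overlapped, and members held 2, 1, 1 and 0 UMIs. With the interferon threshold at 5 UMIs its call was lost at -2.87.

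Serpinb2, an inhibitor of plasminogen activators, had 0, 7.56, 1.93 and 0 CPM in members and 88.0, 30.3, 28.8 and 16.9 CPM in the others (-3.32 ± 0.65, edgeR adjusted p = 0.00332), and members held 0, 3, 1 and 0 UMIs of it.

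Hypoxia and glycolysis genes gave 6 higher and 0 lower of 18 tested (median 0.51), but only 1 higher when scaled by total UMIs (median 0.20) or with no library block, 2 without DKO replicate 2, without TKO replicate 1 or with matched cells, and 3 without DKO replicate 1. Hk2, which starts glycolysis, was the one that kept its call there at 0.95, and had 499, 338, 237 and 239 CPM against 274, 139, 205 and 79.6 CPM, with overlap (1.26 ± 0.21). With no library block Hk2 lost its call (edgeR adjusted p = 0.0668). Early response and heat shock genes, which respond to tissue dissociation, gave 5 higher and 0 lower of 17 (median 0.43), and 1 higher under total UMI scaling (median 0.13), without DKO replicate 2, without TKO replicate 1, with no library block, with no filter or at interferon thresholds of 5 or 10 per 10000 UMIs. Egr1 kept its call there, with 1103, 1010, 947 and 842 CPM against 853, 814, 566 and 673 CPM, with overlap at its edge (0.74 ± 0.15, and 0.44 under that scaling).

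Transcripts of interferons themselves were at or near 0. Of 12 interferon ligand genes 11 had 0 UMIs in members, among them Ifnb1, and Ifng had 2 UMIs in 2 members of TKO replicate 2. The other neutrophils held 0 UMIs of all 12, so no difference was detectable at this depth.

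The genotypes were next compared within the members. None of 3338 genes (0%) passed edgeR's quasi-likelihood test between TKO and DKO, 134 were under 0.05 before adjustment, and DESeq2 called 6. With 1 library left out edgeR called 8 (without DKO replicate 1), 6 (without DKO replicate 2), 9 (without TKO replicate 1) or 15 (without TKO replicate 2). Each of these fits leaves 1 library in a genotype, which is assumed to vary like the other genotype's libraries, so the counts are not comparable with the fit of all 4. In data simulated at these depths the test recovered 58% of changes of 4-fold and 1.5% of changes of 2-fold. It thus missed many 4-fold and nearly all 2-fold changes, and other sizes were not simulated. Slfn4 (0.04 ± 0.31) and Cxcl10 (-0.07 ± 0.37) differed by less than their errors, and the sign of each changed with the library left out. The genes with the smallest p were Ifi202b (-6.47 ± 0.85, edgeR adjusted p = 0.0579), Rdh12, Chil3, Csf3 and Olfr372.

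Rdh12, Chil3 and Olfr372, which did not pass, were ordered by genotype in the other neutrophils of the same libraries as well. Rdh12, a retinol dehydrogenase, had 8.82 and 0 CPM in DKO members and 164 and 214 CPM in TKO members, and 15.3, 12.4, 368 and 351 CPM in the other neutrophils. Chil3, a chitinase-like protein of myeloid cells, ran the other way, with 207, 204, 11.6 and 0 CPM in members and 346, 297, 27.8 and 4.82 CPM in the others. Olfr372 had 39.7, 113, 1.93 and 0 CPM in members and 14.3, 75.7, 2.88 and 0 CPM in the others. For each of these genes the genotypes did not overlap in either population. The genes were picked by their p between genotypes in members, and the share of all genes without overlap was not counted. The other neutrophils come from the same libraries and are no independent check. Csf3, which encodes the growth factor G-CSF, had 124, 229, 23.1 and 10.9 CPM in members and 40.9, 95, 27.8 and 45.8 CPM in the others, where the genotypes overlapped.

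The difference between members and other neutrophils was then tested for a difference between genotypes. None of 5608 genes (0%) passed the edgeR interaction test, 230 were under 0.05 before adjustment, and DESeq2 gave 0 calls. Without TKO replicate 1 edgeR called 15, without TKO replicate 2 it called 10, without DKO replicate 2 it called 1, and without DKO replicate 1 it called 0, under the same assumption. In simulated data the interaction test recovered 40% of 4-fold changes. The smallest p belonged to Slc24a3, AW112010, Csf1, Cstdc4 and Ifitm6. Csf1, the macrophage growth factor, had 807, 363, 362 and 334 CPM in members and 246, 147, 486 and 386 CPM in the others, so members were higher in the DKO libraries and lower in the TKO libraries (-1.76 ± 0.33, edgeR adjusted p = 0.187). AW112010 had 8.82, 10.1, 81.0 and 268 CPM in members, and 1 cell held 59.5% and 66.2% of the UMIs in the TKO libraries.

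Outside the neutrophils the selecting genes were not absent. T cells with 10 or more UMIs of the 4 genes were 2.52%, 9.78%, 5.16% and 4.59% of T cells, mononuclear phagocytes 8.96%, 5.19%, 3.76% and 5.56%, and the 30, 72, 36 and 19 epithelial cells 36.7%, 36.1%, 16.7% and 36.8%. These cells were deeper, with medians of 13050 to 27869 UMIs for the last pair of classes. A fixed count of UMIs is reached more easily in deeper cells, and the part of depth was not tested. Epithelial cells had 328, 180, 43.2 and 1197 CPM of Ifit3, against 653, 509, 947 and 533 CPM in members. Their Isg15 level was 991, 533, 274 and 1343 CPM. Slfn4 had 26.8, 21.8, 18.5 and 19.5 CPM in T cells, 41.6, 11, 19.8 and 12.3 CPM in mononuclear phagocytes and 48.1, 49.1, 11.8 and 105 CPM in epithelial cells. Each was below the 526 to 577 CPM of the other neutrophils. Members held 46.0%, 57.3%, 62.4% and 49.2% of all Slfn4 UMIs of the kept cells.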

How the data were processed

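Gene expression was measured in 4 single-cell libraries of mouse prostate tumour. The deposited values are UMI counts per gene and cell barcode, made by the authors with Cell Ranger 7.0.0, STAR and mm10, per the submitters' processing notes. A barcode needed 200 genes or more and no more than 20% mitochondrial UMIs. Expression was compared between members and other neutrophils with the library as a block, between genotypes within members, and as the interaction of both. Counts were summed per library and population and tested with edgeR 4.0.16 (TMM, filterByExpr, robust quasi-likelihood fit, R 4.3.3), with Benjamini-Hochberg adjustment over all genes tested. The fits were tested on simulated data. CPM in the text are per 1000000 UMIs in all, without TMM factors. Alternatives were DESeq2 1.42.0, total UMI scaling, other thresholds and gates, matched cells, and each library left out. Gene names and IDs are those in the files. The members and lists were chosen with earlier results of these data known. Named genes are the rule and marker genes, up to 12 called genes each way with the largest fold change at 20 CPM or more and one direction in all 4 libraries (no predicted genes), the 4 smallest p of each list, and the 5 smallest p of each genotype test. Isg15, Ifitm1, Ifitm3, Irf1, Irf9, Ifnar1, Ifngr1, Tlr7, Il1b, H2-K1, Slfn2, Mndal, Clec4n, Csf1r, Adgre1 and other markers of absent cell types were added after their values were seen. Some alleles and genes are not reported here.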

Additional observations from a re-analysis of the deposited data

How the results depend on the processing

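With 2 libraries per genotype no library could be tested as an outlier, and the share of members could not reach significance. The share difference of 1.64 percentage points stayed between 2 and 5.30 with other interferon thresholds, the 3% gate, phagocyte-rich cells left out, or thinning, turned to -0.668 as a share of all kept cells (chosen after seeing the data), and ran from -6.98 to 10.2 with 1 library left out. Leaving out DKO replicate 1 gave -6.98, and leaving out TKO replicate 1 gave -1.87. The genes called between members and other neutrophils numbered 557. They were 364 with no library block, of which 355 were among the 557, and 362 to 505 with 1 library left out, the lowest without DKO replicate 2. Total UMI scaling, chosen after seeing the data, called 804.

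Between genotypes within members, 0 genes became 6 with DESeq2, 18 with no filter on low counts, 3 with total UMI scaling, 3 at 5 interferon UMIs and 3 at 10 per 10000 UMIs. The 3 were Ifi202b, Rdh12 and Chil3 each time. Leaving out 1 library gave 6 to 15 calls, with 1 genotype down to a lone library that is assumed to vary like the others. The replicate block gave 7 calls and a share difference of 1.64 (exact permutation p = 1). The members' deviations from their genotype's mean log2 CPM correlated at 0.0913 between same-numbered libraries. With 2 libraries per genotype both pairs give the same value by construction, so it cannot decide the pairing. The numbers were not taken as pairs. In the interaction test 0 became 7 with no filter, 6 at 5 interferon UMIs, 1 at 20 (Saa3) and 1 at a gate of 3% (Cxcl10), and 0 to 15 with 1 library left out.

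Cxcl10 between genotypes turned to 0.0089 with no filter, 0.68 at the 3% gate, 0.36 without DKO replicate 1 and 0.22 without TKO replicate 2, and ran from -0.42 to 0.36 with 1 library left out. Slfn4 turned to -0.025 at 5 interferon UMIs, -0.10 without DKO replicate 1 and -0.21 without TKO replicate 1, and ran from -0.21 to 0.25. Adgre1 turned to 0.16 at the 3% gate. The cause was not tested in any of these.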
